A study of Ovis aries with 2 samples.

Results

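TKTL1, UCHL1, STRA8 and KIT are genes that are used to mark spermatogonia, the dividing germ cells at the base of the seminiferous tubule, and the step from these cells into meiosis. They were followed by symbol in 2 single-cell RNA libraries of sheep testis, as 4 of 27054 genes listed in both count matrices (ENSOARG00000005493, ENSOARG00000013198, ENSOARG00000008428 and ENSOARG00000000078, in the order above). The question was which barcodes held them, whether they were detected together, whether they came from germ or somatic cells, and how the libraries differed. The libraries are labelled Control and ZEA0.75, both from testis at an age of 8 months. ZEA is the usual abbreviation of zearalenone, an oestrogen-like mould toxin, which the labels do not spell out, and they give no unit for 0.75. Neither the number of animals nor whether animals or tissue were exposed is given in the labels. The design text describes a study of ZEA damage to the testis.

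TKTL1 is a transketolase-like protein related to the pentose phosphate enzyme transketolase. UCHL1 is a ubiquitin C-terminal hydrolase that is abundant in neurons and is used in livestock to stain spermatogonia. KIT is the receptor for KIT ligand (KITLG, stem cell factor) and appears on differentiating spermatogonia, and it is also known from Leydig cells, mast cells and some endothelial cells. STRA8 is induced by retinoic acid and is needed as germ cells enter meiosis.

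The Control library held 7030 barcodes with 53044981 unique molecular identifiers (UMIs, each standing for 1 captured RNA molecule), and the ZEA0.75 library 8809 barcodes with 22148456. After filtering, 7009 and 8805 barcodes were kept, with medians of 4311 and 1406 UMIs. With a single library for each group there is no replicate check and no p-value, and all intervals are exact 95% intervals for counting error alone. Variation between animals or between preparations is confounded with the groups and the effects cannot be told apart. The endothelial-like clusters held 3 of the kept Control barcodes and 2213 of the kept ZEA0.75 barcodes. Both libraries shared 15 barcode sequences, which held 2 UMIs of these genes. Doublet calls numbered 198 in Control and 1 in ZEA0.75, so the caller has not worked in ZEA0.75 and all barcodes were kept.

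All 4 genes were rare. Control held 479 UMIs of TKTL1 in 95 barcodes, 638 of UCHL1 in 502, 70 of STRA8 in 52 and 116 of KIT in 111. ZEA0.75 held 101 UMIs of TKTL1 in 29 barcodes, 113 of UCHL1 in 107, 13 of STRA8 in 12 and 115 of KIT in 112. At least 1 of the genes was seen in 9.83% of the Control barcodes and in 2.83% of the ZEA0.75 barcodes. Of those barcodes, 91.9% in Control and 96.0% in ZEA0.75 held exactly 1 of the 4 genes.

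The name spermatogonial did not match where most UMIs of UCHL1 and KIT lay. TKTL1 was packed into a few barcodes together with other early germ cell genes. STRA8 was partly in the same barcodes. UCHL1 lay mainly in spermatids, the haploid cells after meiosis, in Control, where their named clusters held 89.8% of its UMIs, against 46.9% in ZEA0.75. KIT was spread over spermatids in Control and lay mainly in endothelial-like cells in ZEA0.75. The libraries also differed in the size of these clusters. Spermatid clusters 4, 8 and 6 held 11475033, 11443246 and 8712200 of 53015022 kept Control UMIs. In ZEA0.75, spermatid clusters 15, 11 and 1 held 3788346, 2053699 and 1925427 of 22144923. How far the shares of UCHL1 and KIT follow these sizes was not tested.

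**Figure D1:**
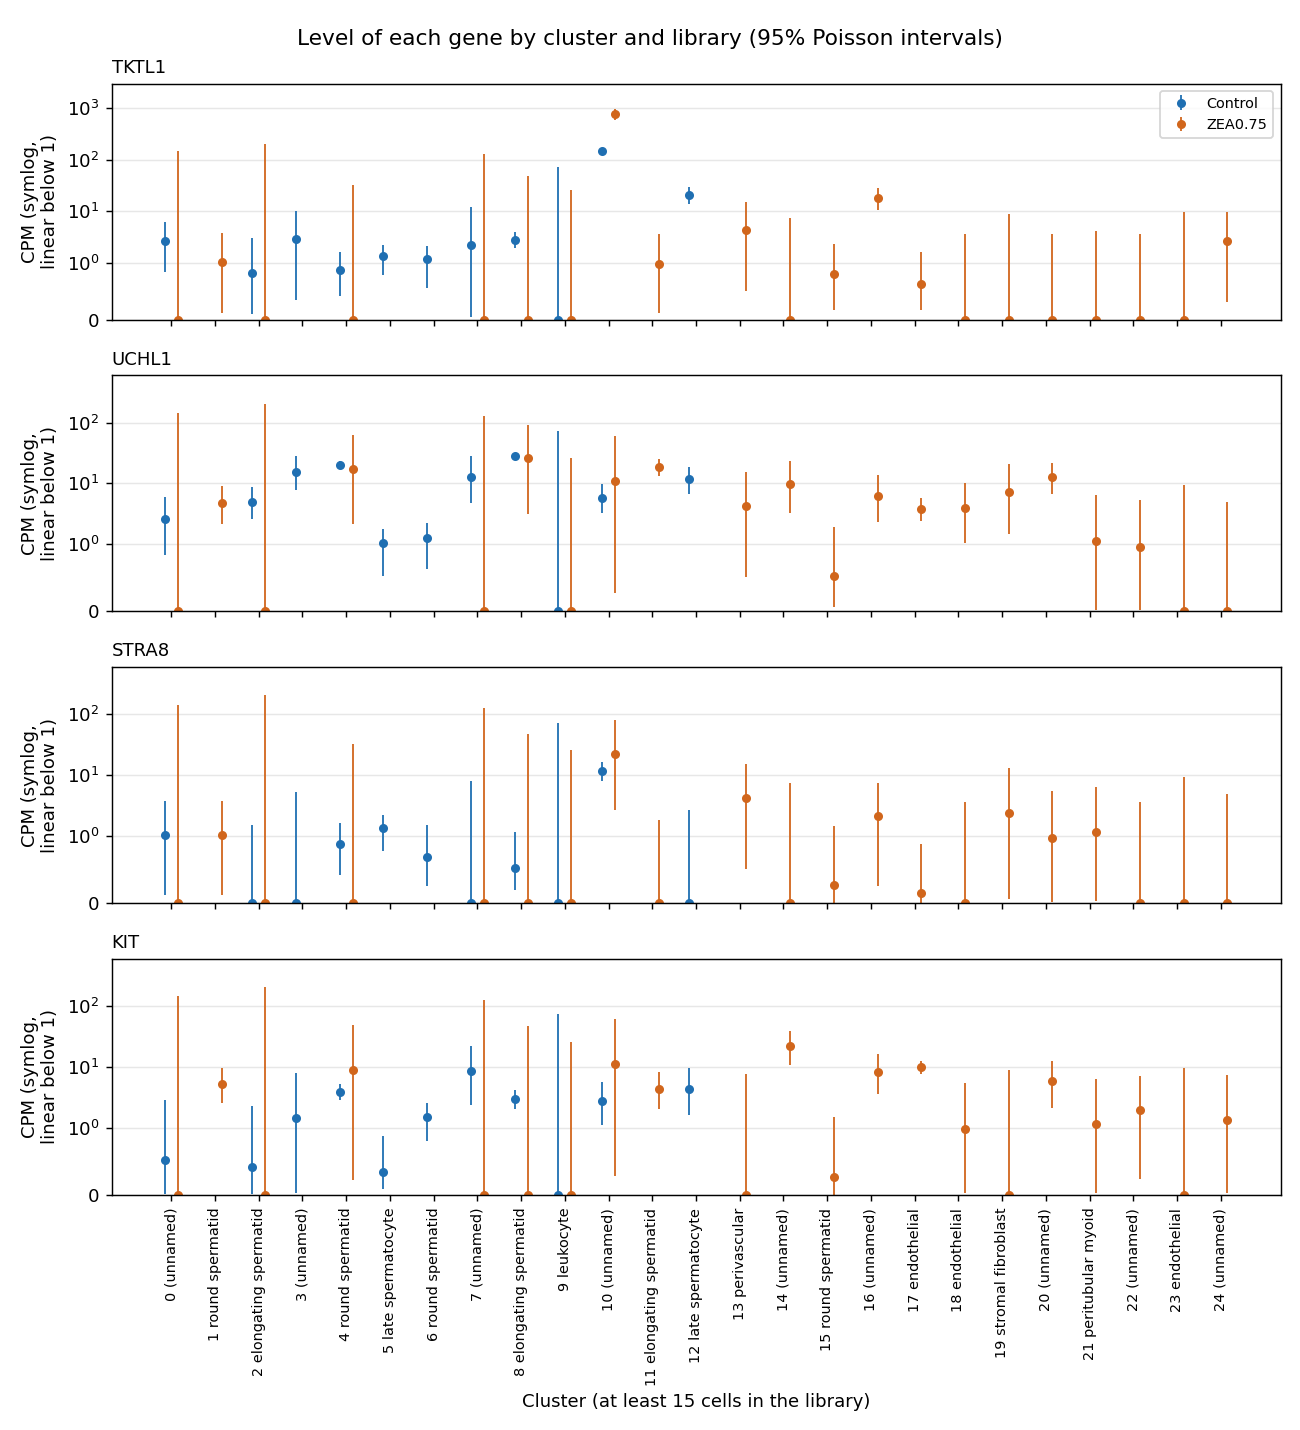
Counts per 1000000 UMIs (CPM) of each gene, summed over the barcodes of a cluster, on a symmetric log axis that is linear below 1, for each cluster with at least 15 barcodes in that library. Points are the CPM, bars are 95% Poisson intervals, blue is Control and orange is ZEA0.75. TKTL1 stands out in cluster 10 of both libraries, UCHL1 is highest in clusters 4 and 8 among well-filled Control clusters, and KIT is at 9.93 CPM in cluster 17 and 21.8 CPM in cluster 14 of ZEA0.75.

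TKTL1 was held by few barcodes at high counts. In Control, 60 barcodes had 1 UMI, 2 had 2 UMIs and 5 had 3, while 28 had 4 or more, up to 32. Those 28 barcodes, called TKTL1-rich here, held 400 of the 479 UMIs, or 83.5%, although they held 0.518% of the kept UMIs. In ZEA0.75, 10 barcodes with 4 or more UMIs, up to 15, held 77 of 101 UMIs, or 76.2%. The threshold of 4 was chosen after the counts were seen, so the level of TKTL1 in these barcodes is a description only.

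Of the TKTL1-rich barcodes, 25 of 28 in Control and 8 of 10 in ZEA0.75 lay in cluster 10. This cluster met no cell type's criteria and stays unnamed, and its leading genes were H1-6, a linker histone of meiotic cells, TEX101, TKTL1, TDRD5 and PIWIL1. The summed level of TKTL1 there was 145 CPM (131 to 161) for Control and 758 CPM (590 to 960) for ZEA0.75. The cluster held 264 Control barcodes but only 17 ZEA0.75 barcodes. In Control, 228 of the 264 held no TKTL1, so the gene marked a small subset and not the cluster. The other Control barcodes of cluster 10 held 9899 CPM of the late spermatocyte marker list, against 1830 CPM in the TKTL1-rich ones.

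Outside cluster 10, 3 Control barcodes were TKTL1-rich. The first, in elongating spermatid-like cluster 8, held 26 of that cluster's 32 UMIs, and without it the cluster was at 0.525 CPM. The others were in cluster 12, where 55 of 61 barcodes were called doublets, and held 12 and 9 UMIs. The ZEA0.75 exceptions were 2 barcodes in cluster 16, led by the vascular genes SELP and ABCG2, with 12 and 5 UMIs. In endothelial-like cells of ZEA0.75, which should lack the gene, TKTL1 was at 0.515 CPM (0.140 to 1.32). Perivascular-like cluster 13 was at 4.20 CPM (0.508 to 15.2) and somatic-side cluster 24 at 2.62 CPM (0.317 to 9.47), on 2 UMIs each. Peritubular myoid-like, stromal fibroblast-like and leukocyte-like barcodes of ZEA0.75 held none.

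**Figure D2:**
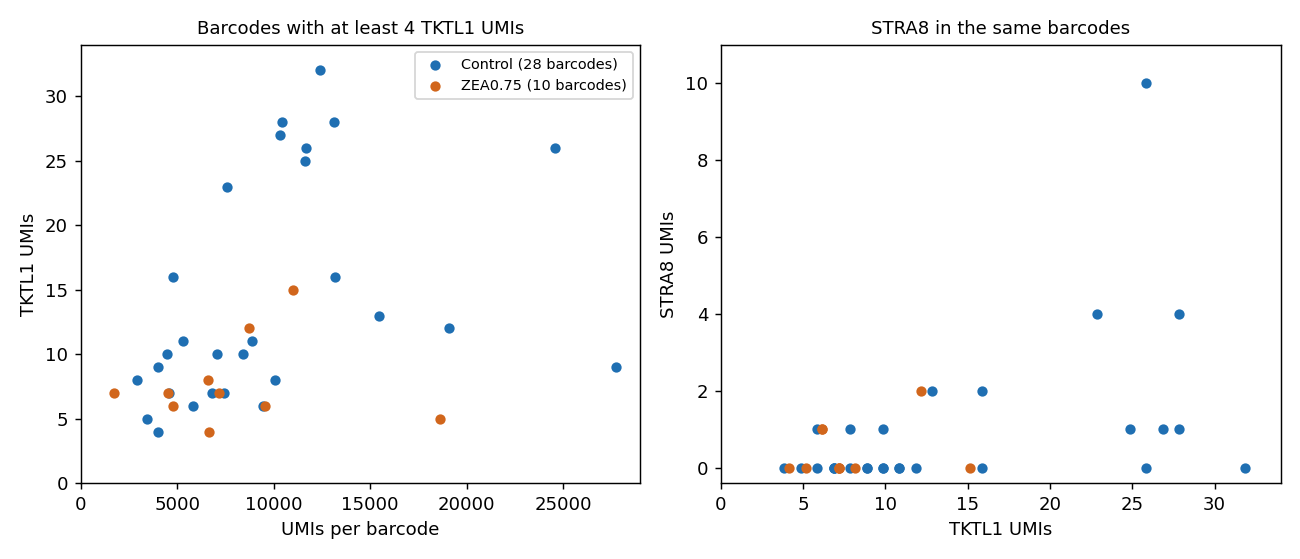
Left, TKTL1 UMIs against all UMIs of each barcode with at least 4 TKTL1 UMIs. Right, STRA8 against TKTL1 UMIs in the same barcodes, with the libraries shifted slightly sideways; each point is a barcode, blue for Control and orange for ZEA0.75. The barcode with 10 STRA8 UMIs holds 26 TKTL1 UMIs, and most points with few TKTL1 UMIs lie at 0.

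The share of barcodes that were TKTL1-rich was 0.399% (0.266 to 0.577) in Control and 0.114% (0.0545 to 0.209) in ZEA0.75. Among barcodes with at least 1000 UMIs it was 0.5001% (0.333 to 0.722) and 0.180% (0.0863 to 0.331), and with at least 2000 UMIs 0.659% (0.438 to 0.951) and 0.295% (0.135 to 0.560). Among barcodes with at least 5000 UMIs it was 0.617% (0.382 to 0.941, 21 of 3404) and 0.616% (0.248 to 1.26, 7 of 1137). The intervals of the libraries overlapped with at least 2000 and at least 5000 UMIs, and did not with at least 1000 or over all kept barcodes. All these shares count somatic-side barcodes too, 60 in Control and 4267 in ZEA0.75. Of germ-side barcodes, by a rule changed after seeing the data, 0.403% (0.268 to 0.582) and 0.231% (0.111 to 0.424) were TKTL1-rich, with overlapping intervals. Median depth of the rich barcodes was 8661.5 UMIs in Control and 6900.5 in ZEA0.75.

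STRA8 was concentrated in the same barcodes. The TKTL1-rich Control barcodes held 28 of the 70 STRA8 UMIs in 11 barcodes, a level of 102 CPM (67.7 to 147), against 0.796 CPM (0.574 to 1.08) in all other kept Control barcodes. The highest STRA8 counts, 10, 4 and 4 UMIs, were all in TKTL1-rich barcodes with 26, 28 and 23 TKTL1 UMIs. In ZEA0.75, 3 of 10 rich barcodes held 4 of the 13 STRA8 UMIs, at 50.4 CPM (13.7 to 129), against 0.408 CPM (0.187 to 0.774) in the others. The intervals of rich and other barcodes did not overlap in either library.

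Of those top STRA8 barcodes, 2 also held SYCP3, a component of the meiotic chromosome axis. The one with 10 STRA8 UMIs had 6 SYCP3, 4 DMC1 and 14 TEX101 UMIs, and the one with 23 TKTL1 UMIs had 3 SYCP3, 1 DMC1 and 6 TEX101 UMIs. DMC1 is a meiotic recombinase. The third, with 28 TKTL1 and 4 STRA8 UMIs, had no SYCP3, DMC1 or TEX101 UMI. Outside the rich barcodes STRA8 was thin: late spermatocyte-like cluster 5 of Control held 16 UMIs at 1.36 CPM (0.778 to 2.21) and round spermatid-like cluster 4 held 10 at 0.871 CPM (0.418 to 1.60), with overlapping intervals. Endothelial-like cells of ZEA0.75, which should lack STRA8, had 1 UMI in 2213 barcodes, a share of 0.0452% at a median of 2589 UMIs, against 1.44% in cluster 5 at a median of 10032. Other somatic cells of ZEA0.75 gave 4.20 CPM (0.508 to 15.2, perivascular-like), 2.37 CPM (0.0599 to 13.2, stromal fibroblast-like) and 1.13 CPM (0.0287 to 6.32, peritubular myoid-like). These rest on 2, 1 and 1 UMIs, and their intervals overlap that of cluster 5. Leukocyte-like barcodes held none.

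KIT and UCHL1 were also found in some TKTL1-rich Control barcodes. KIT had 8 UMIs in 7 of the 28, at 29.1 CPM (12.6 to 57.4) against 2.05 CPM (1.68 to 2.47) in other kept barcodes. UCHL1 had 18 UMIs in 14 of the 28, at 65.5 CPM (38.8 to 104) against 11.8 CPM (10.8 to 12.7). In ZEA0.75 the rich barcodes held 1 UMI of each gene, too few to set a level. These were small parts of each gene's total: 6.90% of Control KIT and 2.82% of Control UCHL1.

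Joint detection was compared in barcodes with at least 2000 UMIs, thinned to 2000, because deeper barcodes hold more of every gene. In Control, 3 of 37 barcodes with TKTL1 also held STRA8, or 8.11% (1.70 to 21.9), against 0.214% (0.0977 to 0.405) of those without TKTL1. UCHL1 was in 3 of the same 37, or 8.11%, against 2.02% (1.61 to 2.49), with intervals that overlap. UCHL1 and KIT, the pair with the most shared Control barcodes before thinning (33), had 0 after it. UCHL1 and STRA8 also had 0, and KIT with TKTL1 and KIT with STRA8 had 1 each. At that depth 88 of 4250 barcodes held UCHL1 and 15 held KIT, too few for a count of 0 to decide joint detection. Each thinned count comes from a single random draw. With doublet-called barcodes left out and the rest thinned anew, UCHL1 and KIT had 2. Leaving out barcodes cannot raise a count, so that rise came with the new draw.

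In ZEA0.75 at the same depth, 2 of 14 TKTL1 barcodes held KIT, or 14.3% (1.78 to 42.8), against 1.25% (0.888 to 1.72) of the rest. The other 5 pairs had no shared barcode there, at a depth where STRA8 was seen in 1 of 3046. Doublet-called barcodes were then left out and the rest thinned anew. In that draw TKTL1 with KIT had 1, TKTL1 with STRA8 had 2 and STRA8 with KIT had 1. Only 1 barcode was left out and it held none of the 4 genes, so these shifts came with the new draw. Before thinning, 2 of 29 TKTL1 barcodes held KIT, or 6.90% (0.846 to 22.8). The rest were at 1.25% (1.03 to 1.51), with intervals that overlap. Without thinning, 3 Control barcodes held all 4 genes and none did in ZEA0.75; all 3 were TKTL1-rich. Of the 12 Control barcodes with 3 or 4 of the genes, 10 were TKTL1-rich. TKTL1 is itself counted among the genes, so these last counts partly follow from how rich barcodes were chosen.

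Some other genes of early germ cells lay largely in the TKTL1-rich barcodes and others did not. Over the whole table, 37.9% of 8441 Control genes were more than 2-fold higher in rich barcodes than in other germ-side barcodes, and 17.6% were more than 2-fold lower, so a higher level there was common. The corresponding shares in ZEA0.75 were 29.6% and 20.5% of 6595 genes. The share of a gene's UMIs that lay in the rich barcodes is given instead. All 14 Control UMIs of SALL4, a transcription factor of undifferentiated germ cells, were in 5 rich barcodes.

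DMRT1, a transcription factor that controls the switch between mitosis and meiosis, had 21 of 28 Control UMIs in 13 rich barcodes. PIWIL4, a PIWI protein of early germ cells, had 14 of 17 in 7 rich barcodes. In ZEA0.75, the rich barcodes held 2 of 3 SALL4 UMIs, 2 of 3 DMRT1 UMIs and 9 of 19 PIWIL4 UMIs. SPOCD1, which acts in piRNA-directed DNA methylation, had 29 of 47 UMIs in 8 rich Control barcodes and 29 of 38 in 6 rich ZEA0.75 barcodes. These genes were picked out after their values were seen, and most UMIs of some other members of the same lists lay elsewhere. The rich barcodes, with 0.518% of the kept Control UMIs, held 18 of 259 UMIs of ELAVL2, 3 of 217 of DMRTB1, 2 of 109 of RET and 17 of 12810 of TSPAN8. In level, ELAVL2 was still higher there, at 65.5 CPM (38.8 to 104) against 4.55 CPM in germ-side barcodes without TKTL1. DMRTB1 was at 10.9 CPM (2.25 to 31.9) against 4.13 CPM and RET at 7.28 CPM (0.881 to 26.3) against 2.05 CPM. TSPAN8 was lower, at 61.9 against 243 CPM. The rich barcodes held none of the 489 UMIs of LHX1, the 130 of BCL6B or the 18 of ETV5, which allows up to 13.4 CPM of each.

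CCND2, a cyclin of dividing spermatogonia, had 18 of 32 Control UMIs in rich barcodes but 1 of 753 in ZEA0.75, where somatic cells were plentiful. REC8, a meiotic cohesin subunit, had 17 of 34 and 2 of 72. TEX11, an X-linked meiosis gene, was in all 28 rich Control barcodes with 197 of 449 UMIs, and in 8 of 10 in ZEA0.75 with 39 of 156. SYCP3 had 14 of 69 UMIs in 7 rich Control barcodes and 0 of 10 in ZEA0.75. GFRA1, the GDNF co-receptor of spermatogonial stem cells, had none of its 33 Control and 9 ZEA0.75 UMIs there. Upper ends of the intervals were 13.4 CPM in rich Control and 46.5 CPM in rich ZEA0.75 barcodes. Germ-side barcodes without TKTL1 were at 0.637 and 0.799 CPM, so the rich barcodes were too few to show a lack of GFRA1. NANOS2, PAX7 and EGR4 had no UMI in either library, which at 3 counts allows up to 0.0566 CPM in Control and 0.135 CPM in ZEA0.75.

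**Figure D3:**
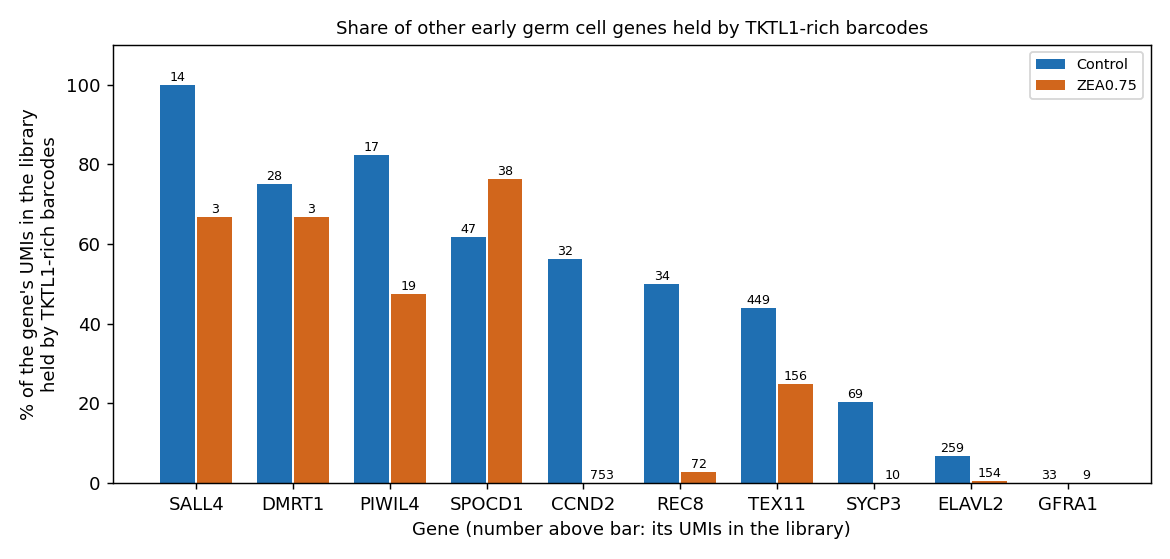
Share of each gene's UMIs that lay in TKTL1-rich barcodes, as a percent of its UMIs in that library; bars start at 0, blue is Control and orange is ZEA0.75, and the number above a bar is the gene's UMIs in the library. SALL4 reaches 100% of 14 UMIs in Control, GFRA1 is at 0 in both libraries on 33 and 9 UMIs, and the SALL4 and DMRT1 bars of ZEA0.75 rest on 3 UMIs each.

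The rich barcodes also differed from germ-side barcodes as a whole. Mitochondrially encoded genes took a median of 2.61% of their UMIs in Control and 3.74% in ZEA0.75, against 0.0448% and 0.0103% in germ-side barcodes with no TKTL1. The other barcodes of cluster 10 were at 3.47% and 3.71%, close to the rich ones. COX3, a subunit of cytochrome oxidase, was at 8285 CPM in the rich Control barcodes and 623 CPM in other germ-side Control barcodes. Among the 25 genes that led the rich Control barcodes were HSPA8, a constitutive heat shock protein, GAPDH, TUBB and SMC3, a cohesin subunit. HSPA8 was at 1408 CPM against 3.16 CPM in other germ-side Control barcodes. Of the 25, 23 had enough UMIs for a ratio in ZEA0.75, and all 23 were more than 2-fold higher in the rich barcodes there, with a median log2 ratio of 3.86, against 29.6% of all genes.

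Few somatic markers were detected in the rich Control barcodes, but several lists were above their level over the library. The peritubular myoid list was at 91.0 CPM against 10.6 CPM over the library, from 25 UMIs of 5 of 7 markers, with TAGLN and CNN1 at 0. None of 6 Leydig markers was detected. Of 7 Sertoli markers only WT1 was, with 4 UMIs, a list level of 14.6 CPM against 6.13 CPM over the library; FSHR and SOX9 were at 0. The endothelial list was at 21.8 CPM, from 6 UMIs of 2 of 10 markers, against 4.02 CPM over the library, with PECAM1 and CDH5 at 0. The lymphocyte and mast cell lists were at 10.9 and 14.6 CPM, from 3 and 4 UMIs, against 4.04 and 5.92 CPM. In the rich ZEA0.75 barcodes the endothelial list was at 176 CPM, from 4 of 10 markers, against 963 CPM over the library, and no Sertoli or Leydig marker was detected. The elongating spermatid list was at 3912 CPM in rich Control barcodes and 4249 CPM in rich ZEA0.75 barcodes, against 13648 and 6276 CPM over the libraries. The part of mixed barcodes and free RNA in these values was not tested.

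In Control, UCHL1 lay mainly in spermatids. Clusters 8 and 4 of Control, elongating and round spermatid-like, held 317 and 233 of its 638 UMIs, or 86.2% together. In ZEA0.75 the named spermatid clusters held 53 of its 113 UMIs, or 46.9%, and also a smaller part of all kept UMIs than in Control. Its level was 27.7 CPM (24.7 to 30.9) in cluster 8 and 20.3 CPM (17.8 to 23.1) in cluster 4. In late spermatocyte-like cluster 5 it was 1.02 CPM (0.528 to 1.78). A UMI was seen in 26.4% (23.5 to 29.3) of cluster 8 barcodes at a median of 11904 UMIs, against 1.15% (0.595 to 2.00) in cluster 5 at 10032. Thinned to 500 UMIs per barcode, the shares were 1.31% in cluster 8 and 0.0957% in cluster 5. No barcode of Control held more than 7 UMIs.

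Ordered by the summed elongating spermatid markers, UCHL1 in Control was 1.26 CPM (0.630 to 2.26) in cluster 6, higher in clusters 4 and 8, and 4.95 CPM (2.56 to 8.65) in cluster 2. The intervals of clusters 4 and 8 did not overlap each other or those of clusters 6 and 2. ZEA0.75 gave a similar order over its own clusters, with 0.528 CPM (0.0639 to 1.91) in cluster 15, 4.67 CPM (2.14 to 8.87) in cluster 1 and 18.5 CPM (13.1 to 25.4) in cluster 11. The interval of ZEA0.75 cluster 11 overlapped those of Control clusters 4 and 8. Cluster 15 had a median of 9764 UMIs, and 2 of its 373 barcodes held a UCHL1 UMI.

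**Figure D4:**
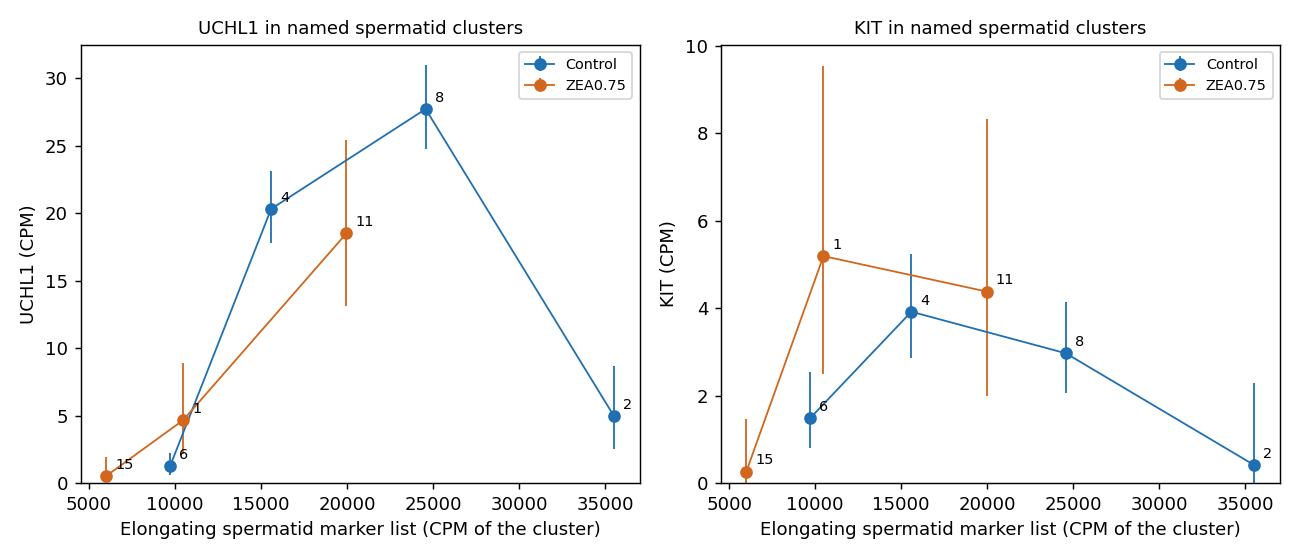
UCHL1 (left) and KIT (right) in the named spermatid clusters, in CPM, against the summed CPM of the elongating spermatid marker list in the same cluster. Points carry the cluster number, bars are 95% Poisson intervals, lines join the clusters of a library, blue is Control and orange is ZEA0.75. UCHL1 is highest in cluster 8 of Control and low in clusters 6, 2 and 15; the ZEA0.75 clusters lie left of cluster 8.

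UCHL1 was also seen in somatic clusters of ZEA0.75. Endothelial-like cells held 28 UMIs at 3.61 CPM (2.40 to 5.21), a share of 1.22% (0.806 to 1.77) at a median of 2589 UMIs. Leukocyte-like cells held none in 101 barcodes, which at 3 counts allows up to 21.1 CPM. UCHL5, the only other ubiquitin C-terminal hydrolase of the list that was found, was at 130 CPM in Control and 121 CPM in ZEA0.75. UCHL3 and BAP1 were not analysed here.

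KIT was seen in different cells in the libraries, which also differed in the cells they held. The 3 endothelial-like barcodes of Control held 7128 UMIs and no KIT, which at 3 counts allows up to 421 CPM. Whether endothelial cells held KIT in Control could therefore not be seen. In Control, 45 of its 116 UMIs were in cluster 4, at 3.92 CPM (2.86 to 5.25), and 34 in cluster 8, at 2.97 CPM (2.06 to 4.15). Late spermatocyte-like cluster 5 was at 0.340 CPM (0.0927 to 0.872), an interval below both. A KIT UMI was in 6.05% (4.43 to 8.04) of cluster 4 barcodes, at a median of 14320 UMIs, against 0.383% (0.104 to 0.977) in cluster 5 at 10032. Named spermatid clusters together held 80.2% of the Control KIT UMIs, but they also held most of all kept Control UMIs.

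In ZEA0.75, 63 of the 115 KIT UMIs were in endothelial-like cluster 17, led by CA4, ABCG2 and VWF, at 9.93 CPM (7.63 to 12.7). That cluster held 6341330 of the 22144923 kept ZEA0.75 UMIs. Endothelial-like cluster 18, led by DEPP1, CXCL12 and PECAM1, had 1 KIT UMI in 357 barcodes, at 0.971 CPM (0.0246 to 5.41). The intervals did not overlap and the median depths were close, 2564 and 2333 UMIs. A KIT UMI was in 3.40% (2.61 to 4.35) of cluster 17 barcodes, against 0.216% (0.00546 to 1.19) of peritubular myoid-like cluster 21 at a median of 1848.5. Cluster 14, unnamed and led by mitochondrial genes at a median of 628 UMIs, had 11 KIT UMIs at 21.8 CPM (10.9 to 39.0).

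The ligand of KIT was also seen in endothelial-like cells. KITLG had 2067 UMIs in ZEA0.75 and 8 in Control, and was at 421 CPM in cluster 18 and 193 CPM in cluster 17, the reverse of the KIT order. Of the mast cell markers, HDC had 299 UMIs in Control, 10 of them in barcodes with KIT, and 80 in ZEA0.75, 1 of them with KIT. In Control, HDC was at 3.71 to 5.07 CPM in spermatid clusters 2, 4, 6 and 8, so HDC alone does not mark a mast cell here. SLC18A2 had 8 and 14 UMIs, CPA3 had 1 in each library and MS4A2 none. Of the ZEA0.75 barcodes with KIT, 2 held INSL3, a Leydig cell hormone, with 77 UMIs between them. ZEA0.75 barcodes with KIT held 1727 CPM of the endothelial list, against 963 CPM over the library. The spermatid clusters of ZEA0.75 gave 5.19 CPM (2.49 to 9.55) in cluster 1 and 4.38 CPM (2.00 to 8.32) in cluster 11, with intervals that overlap that of Control cluster 4, and 0.264 CPM (0.00668 to 1.47) in cluster 15, an interval below it.

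Over all kept cells, TKTL1, UCHL1 and STRA8 were lower in ZEA0.75 and KIT was higher. TKTL1 was at 9.04 CPM (8.24 to 9.88) for Control and 4.56 CPM (3.71 to 5.54) for ZEA0.75, a log2 ratio of -0.99 (-1.31 to -0.67). UCHL1 was at 12.03 and 5.103 CPM, a log2 ratio of -1.24 (-1.54 to -0.95). STRA8 was at 1.32 and 0.587 CPM, a log2 ratio of -1.17 (-2.15 to -0.30), on 13 UMIs in ZEA0.75. KIT was at 2.19 and 5.19 CPM, a log2 ratio of 1.25 (0.86 to 1.63).

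UCHL1 and STRA8 were thus more than 2-fold lower and KIT more than 2-fold higher, while TKTL1 fell just short of 2-fold. Among 13390 genes with at least 50 UMIs, 50.1% were past 2-fold, 34.1% higher and 16% lower in ZEA0.75, so ratios of this size were common. The median log2 ratio of all genes was 0.20. In such sums, fewer cells of a type and less RNA per cell cannot be told apart. Within germ-side clusters only, TKTL1 had a log2 ratio of 0.02 (-0.32 to 0.34), UCHL1 of -0.75 (-1.12 to -0.39), STRA8 of -0.75 (-2.01 to 0.31) and KIT of 0.69 (0.11 to 1.24). These clusters included cluster 16, led by vascular genes. In ZEA0.75 it held 8 of the 36 germ-side KIT UMIs and 17 of the 93 of TKTL1. Ratios without cluster 16 were not computed. The choice of germ-side clusters was made after seeing the data and left out a thin marker list. By the rule as first written the TKTL1 ratio was 1.57 (1.22 to 1.90) and that of STRA8 was 0.47 (-1.03 to 1.66).

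**Figure D5:**
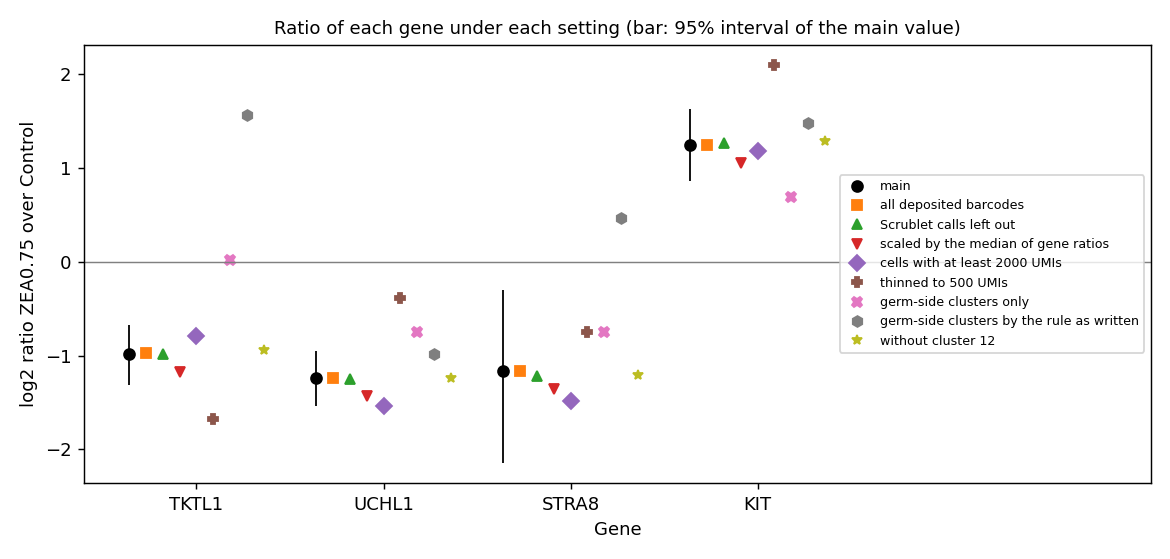
Log2 ratio of ZEA0.75 over Control of each gene over all kept cells (black, with its 95% interval) and under each other choice of cells, scaling or depth (coloured symbols); the line at 0 marks equal levels. The points of UCHL1 lie below 0 and those of KIT above 0 under every setting drawn, but the UCHL1 interval thinned to 500 UMIs, not drawn, spans 0. TKTL1 is at 0.02 in germ-side clusters and 1.57 by the rule as first written.

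Every UMI of the 4 genes in kept Control barcodes lay in clusters on the germ side, by the highest relative marker list, but at a coarser clustering (Leiden resolution 0.5) the Control shares were 49.5% for UCHL1 and 67.2% for KIT. In ZEA0.75 the share was 87.1% (79.0 to 93.0) for TKTL1, 17.7% (11.2 to 26.0) for UCHL1, 46.2% (19.2 to 74.9) for STRA8 and 17.4% (10.96 to 25.6) for KIT, and at the coarser clustering 6.93%, 1.77%, 0% and 0.870%. That rule placed clusters 11, 15 and 20 on the somatic side through an erythroid list of which 1 marker was detected, although 11 and 15 were named spermatid-like. It also put cluster 16, led by vascular genes, on the germ side through the spermatogonia list, and the changed rule left it there. With the erythroid list left out, a change made after seeing its result, the shares were 92.1%, 64.6%, 61.5% and 31.3%, and 99.1% of all kept Control barcodes were on the germ side against 49.3% in ZEA0.75. The values per cluster above do not depend on this rule.

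Genes of the same pathways were counted over all kept cells, from lists written with earlier results of these data known. Of the KIT signalling genes other than KIT, 9 of 11 were more than 2-fold higher in ZEA0.75 and none was lower, with a median log2 ratio of 3.82, against 34.1% higher and 16% lower of all genes. KITLG had the largest ratio, at 0.151 and 93.3 CPM. STAT3, a transcription factor downstream of cytokine receptors, was at 0.113 CPM in Control and 42.4 CPM in ZEA0.75. LYN, a SRC-family kinase, was at 0.0377 and 6.59 CPM, on 2 Control UMIs, and PIK3R1, a regulatory subunit of PI3 kinase, at 1.92 and 62.8 CPM. Of the pentose phosphate genes other than TKTL1, 5 of 6 were higher, with a median log2 ratio of 3.56, against 34.1% of all genes. TKT, transketolase itself, was at 0.641 CPM in Control and 29.9 CPM in ZEA0.75, opposite in direction to TKTL1, and PGD, TALDO1 and PGLS had log2 ratios of 3.92, 3.74 and 3.37. In the endothelial-like clusters of ZEA0.75, TKT was at 52.0 CPM in cluster 17 and 69.9 CPM in cluster 18. The part of the larger number of somatic barcodes in these ratios was not tested.

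Of the retinoic acid and meiotic entry genes other than STRA8, 7 of 13 were more than 2-fold higher and 4 were lower, against 34.1% and 16% of all genes. ALDH1A1, which makes retinoic acid, was at 0.585 CPM in Control and 60.1 CPM in ZEA0.75, and CYP26B1, which degrades it, at 0.528 and 19.8 CPM. RARG, a retinoic acid receptor, was at 0.132 and 5.96 CPM. All 7 Control UMIs of RARG lay in 4 TKTL1-rich barcodes, while none of its 132 ZEA0.75 UMIs lay in such a barcode. The 4 lower genes were RARB, ALDH1A2, RDH10 and CRABP1, named here after their values were seen.

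Of the meiotic prophase genes, 7 of 14 were more than 2-fold lower and 1, REC8, was higher, with a median log2 ratio of -0.92, against 16% lower and 34.1% higher of all genes. TEX101 was at 24.97 and 3.52 CPM, STAG3, a meiotic cohesin subunit, at 10.8 and 1.85 CPM, and HORMAD1, a protein of the meiotic chromosome axis, at 41.4 and 12.3 CPM. REC8 was at 0.641 and 3.25 CPM. Of the undifferentiated spermatogonia genes 4 had enough UMIs. LHX1 was at 9.22 and 2.98 CPM, RET, the GDNF receptor kinase, at 2.06 and 0.723 CPM, BCL6B at 2.45 and 7.32 CPM, and TSPAN8, with a log2 ratio of -0.68, was within 2-fold. Against the same background, among the differentiating spermatogonia genes other than KIT and STRA8, CCND2 was higher, at 0.604 and 34.003 CPM, and DMRTB1 lower, at 4.09 and 1.63 CPM, while the other 4 of 6 were within 2-fold, among them DNMT3B and LIN28B with log2 ratios of 0.79 and -0.73.

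The genes with the most similar pattern were ranked by the Pearson correlation of log2(CPM + 1) over 28 cluster-by-library sums, which share libraries and depth, as a description. For TKTL1 they were H1-6 (r = 0.80), BEND4, PRSS38, SPOCD1 and THAP8. For UCHL1 they were PCSK6 (r = 0.89), RPUSD2, DECR2, GTPBP2 and ASB5. For STRA8 they were GTPBP1 (r = 0.80), MYBPC2, CCNA2, CEP85 and NAPA, and for KIT RHOBTB2 (r = 0.78), HOXB9, MUSK, PLXNB1 and PRUNE1. Among the members themselves, UCHL1 and KIT had r = 0.64, TKTL1 and STRA8 r = 0.61, and STRA8 and KIT r = -0.01.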

How the data were processed

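Libraries of 2 testis samples were made with a 10x Genomics 3' kit, per the labels. The deposited files give UMI counts, not normalized, for each gene in each barcode. Cell Ranger 3.1.0 and STAR stand in the submitters' processing notes of both samples, while the file headers give Cell Ranger 5.0.0 for Control and 3.1.0 for ZEA0.75, so effects of version and group cannot be told apart. Neither genome build nor strand setting is given in the sources used here. In the RefSeq annotation TKTL1 overlaps a long non-coding RNA and STRA8 another protein-coding gene, so their counts could hold reads of these.

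The members and lists were chosen with earlier results of these data known. Barcodes were kept with at least 500 UMIs, 200 genes and at most 20% mitochondrial UMIs. They were clustered with scanpy 1.11.5 (2000 variable genes with library as batch key and without the 4 members, 30 components, 15 neighbours, Leiden resolution 1, igraph 0.11.9), and doublets were called with Scrublet and kept. Clusters were named when a marker list reached a relative level of 0.5 and at least 3 of its markers were enriched, and 16 of 25 were named. These criteria, the TKTL1 threshold of 4 UMIs and the set of leading genes were chosen after seeing the data. A cluster's side followed the highest relative marker list; for the comparison with TKTL1-rich barcodes and the germ-side ratios, lists with under 3 detected markers were left out, also after seeing the data.

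CPM are sums of UMI counts scaled to 1000000, with exact Poisson intervals; shares have Clopper-Pearson intervals and ratios exact conditional binomial intervals. For a ratio, 3 counts replaced a 0; where this put the empty group above the other, the gene was counted as tested and not called. The main choice of genes to name was the 4 members, up to 4 of each list by size of ratio, and 5 genes by likeness. A gene that this choice would name is not reported here. The calculations were tested on simulated data. ZBTB16, ID4, UTF1, SOHLH1, SOHLH2, MKI67, DAZL, MAGEA4 and MEIOSIN were not analysed here.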

Additional observations from a re-analysis of the deposited data

How the results depend on the processing

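No paired analysis was possible because each group has 1 library. Of the alternatives computed, 152 values stayed within their counting intervals, or within 1.5 times for the count of genes, 61 moved beyond that, and 3 reversed in sign; the cause was not tested. The germ-side clusters, a restriction chosen after seeing the data, included vascular-led cluster 16. The log2 ratio of ZEA0.75 over Control in them was 0.0168 for TKTL1, -0.75 for UCHL1 and 0.69 for KIT. By the germ-side rule as first written it was 1.57 for TKTL1 and 0.47 for STRA8. Thinned to 500 UMIs it was -1.67 (-2.72 to -0.71) for TKTL1, -0.38 (-1.22 to 0.45) for UCHL1 and 2.10 (0.71 to 3.84) for KIT. The count of genes past 2-fold was 6707, and 3639 when thinned to 500 UMIs.

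The germ-side shares moved with the clustering and with the rule that sets the side. At Leiden resolution 0.5 the Control shares of UMIs were 90.6% for TKTL1, 49.5% for UCHL1, 91.4% for STRA8 and 67.2% for KIT, and of barcodes 88.4%, 50.8%, 88.5% and 68.5%. In ZEA0.75 the same resolution gave UMI shares of 6.93%, 1.77%, 0% and 0.870%, and barcode shares of 3.45%, 1.87%, 0% and 0.893%. At resolution 2 TKTL1 had 94.0% of Control UMIs, 95.8% of Control barcodes and 65.3% of ZEA0.75 UMIs. With doublet calls left out and the rest clustered anew, TKTL1 had 94.3% of Control UMIs and 71.3% of ZEA0.75 UMIs. The only ZEA0.75 barcode left out held no TKTL1, so its shift came with the new clustering. With the side set barcode by barcode, the ZEA0.75 UMI shares were 98.0% for TKTL1, 70.8% for UCHL1 and 55.7% for KIT, and the barcode shares 93.1%, 70.1% and 54.5%. Without the spermatogonia list the ZEA0.75 UMI share was 70.3% for TKTL1 and 10.4% for KIT. Without thin lists, UCHL1 had 64.6% of ZEA0.75 UMIs and 63.6% of barcodes, and KIT 31.3% and 31.2%. These last 2 changes were chosen after seeing the data.

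Shares of barcodes with a UMI fell with depth and with the count required. In cluster 10, TKTL1 thinned to 500 UMIs was in 7.20% of Control and 17.6% of ZEA0.75 barcodes, and STRA8 in 1.14% of Control barcodes, or 1.89% with at least 2 UMIs unthinned. UCHL1 thinned was in 1.10% of cluster 4, 1.31% of cluster 8 and 0.545% of cluster 11, and with at least 2 UMIs in 5.92%, 5.66% and 0.436%. KIT thinned was in 0% of clusters 4 and 8 and 0.502% of cluster 17, and with at least 2 UMIs in 0.138%, 0.218% and 0.112%. Thinned to 5000 UMIs, 6 Control barcodes held UCHL1 with KIT and 0 ZEA0.75 barcodes held TKTL1 with KIT. With at least 2 UMIs of each gene, 0 ZEA0.75 barcodes held TKTL1 with KIT and 0 Control barcodes STRA8 with KIT. The latter pair was also at 0 without doublet calls, in a new random draw. With a threshold of 8 TKTL1 UMIs, KIT in rich ZEA0.75 barcodes was at 0 CPM.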
